A study of Mus musculus with 13 samples.

Results

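Advanced and early stages of mouse T-ALL (acute lymphoblastic leukaemia of the T lineage) were compared in primary cells whose microRNAs (miRNAs) were read on 1-colour Agilent arrays. The comparison takes 6 of the 13 arrays of the series, 3 of late-stage leukaemia (LS 1 to LS 3) and 3 of early-stage leukaemia (ES 1 to ES 3). Its members are the mouse miRNAs that the scanner software marked as detected on all 3 arrays of either stage, and 210 of the 1122 mouse names on the array met that rule. Of these, 140 were detected on all 6 arrays, 70 on all 3 LS arrays but not on all 3 ES arrays, and 0 the other way round. LS and ES cells share every other label: C57BL/6 mice, bone marrow chimeras transformed with N1ICD, the constantly active intracellular part of Notch1, spleen as the tissue, and sorting by flow cytometry for CD4+ CD8+ cells. The labels do not give the animals' age, the days since transplantation, the vector or promoter that drove N1ICD, or what separates early from late stage. The other primary arrays, used for the estimate of spread and as a background, were 3 of CD4+ CD8+ (DP) and 3 of CD4- CD8- (DN) thymocytes sorted from the thymus of C57BL/6 mice. All replicates are biological by the design text. Whether each leukaemia came from a mouse of its own is not stated, so p-values measure the spread between these samples. For limma that spread is pooled over leukaemias and thymocytes unless stated otherwise, so it is not that of the leukaemias alone.

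miRNAs are short RNAs that guide the silencing complex to messenger RNAs, mainly through the seed, the bases 2 to 8 from the 5′ end, and lower the output of those messages. In T-ALL driven by Notch1, mouse work has tied the miR-17~92 cluster to faster leukaemia and has given the miR-29 family and miR-150 suppressive roles. The miR-181 family tunes the sensitivity of the T-cell receptor in developing thymocytes. The question the comparison addresses is which miRNAs differ between an early and an advanced stage of the same kind of leukaemia.

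The sequences of the miRNAs called between the stages are shown because none of them belongs to the miRNA families usually followed in T cells, and their seeds can be compared. RefSeq (build GRCm38.p6) held mature sequences for 5 of the 7, printed 5′ to 3′ with the seed in capitals.
miR-3473b: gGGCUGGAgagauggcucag
miR-344i: aAGUCAGGcuccuggcugga
miR-341-3p: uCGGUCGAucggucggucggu
miR-690: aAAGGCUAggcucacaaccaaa
miR-3968: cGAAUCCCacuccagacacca
RefSeq annotates 1 locus for each. Mir3473b is placed at chr10:41670774-41670793 (plus strand), Mir344i at chr7:62085281-62085300 (minus) and Mir341 at chr12:109611556-109611576 (plus). Mir690 is placed at chr16:28599940-28599961 (minus) and Mir3968 at chr11:115447969-115447989 (minus). Whether the probes also read RNA from elsewhere that holds these bases was not tested. No 2 of these seeds are alike. The seed of miR-3473b, GGCUGGA, recurs at the 3′ end of miR-344i, outside that miRNA's own seed. miR-3473 and miR-712-5p are named only. miR-3963, an abundant member described further on, shares the 8 bases AUCCCACU with miR-3968.

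A second set of sequences shows 7 of the 8 miRNAs by which array ES 3 stood apart most from the other leukaemias on the low side. The 8th, miR-130b-5p, lies on another chromosome and is left out. The 7 come from 2 clusters, miR-17~92 on chromosome 14 and the miR-106a cluster on chromosome X.
miR-17-5p: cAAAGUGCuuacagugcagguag
miR-20a-5p: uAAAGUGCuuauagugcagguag
miR-20b-5p: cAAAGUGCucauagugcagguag
miR-18a-5p: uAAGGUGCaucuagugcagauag
miR-18b-5p: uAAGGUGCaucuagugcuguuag
miR-19b-3p: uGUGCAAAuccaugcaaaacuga
miR-363-3p: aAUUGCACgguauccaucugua
The first 3 share 1 seed and the 2 miR-18 members another, while miR-19b-3p and miR-363-3p each have their own. In GRCm38.p6 miR-17-5p lies at chr14:115043684-115043706, miR-18a-5p at chr14:115043867-115043889, miR-20a-5p at chr14:115044183-115044205 and miR-19b-3p at chr14:115044358-115044380, all on the plus strand, and miR-19b-3p has another copy elsewhere. On the minus strand of chromosome X, miR-18b-5p lies at chrX:52742381-52742403, miR-20b-5p at chrX:52742159-52742181 and miR-363-3p at chrX:52741697-52741718.

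Differences between arrays of a stage overlapped in size with those between the stages. Detected mouse miRNAs numbered 246, 272 and 255 on LS 1, LS 2 and LS 3, against 148, 238 and 281 on ES 1, ES 2 and ES 3. The means differed by 35.3 in favour of LS, within the spread between arrays (exact permutation test, two-sided, p = 0.6, where 3 against 3 cannot go below 0.1), and without ES 1 the difference was -1.83. The negative controls of ES 1 varied most, with an SD of 18.7 intensity units, against 5.21 to 7.11 on every other array. Of the 70 members that missed detection on an ES array, 55 missed it on ES 1 alone, so most of that set exists through this array. A further 57 names were detected on 2 of 3 arrays of a stage and on all 3 of neither, just outside the rule.

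Levels are given as log2 scaled signal: background-subtracted intensity divided by the array's 75th percentile over a fixed set of well-measured miRNAs, so that 0 is that percentile and -7.59 is the floor. Over the 140 miRNAs detected on all 6 arrays, the mean absolute difference between 2 arrays was 0.46 to 0.65 within LS and 0.43 to 1.04 within ES. Between an LS and an ES array it was 0.44 to 0.89, against 0.14 to 0.28 within DP and 0.16 to 0.20 within DN thymocytes. The single closest pair across the stages, LS 3 and ES 2 at 0.44, was closer than any pair of LS arrays. ES 3 was 1.00 from ES 1 and 1.04 from ES 2, farther than any LS array was from any ES array. The median SD of a miRNA was 0.30 among LS arrays and 0.59 among ES arrays, and 0.23 over ES 1 and ES 2 alone. The SD was larger in ES for 105 of the 140. LS 1, LS 2, ES 1 and ES 2 shared a slide, and LS 3 and ES 3 shared another.

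**Figure D1:**
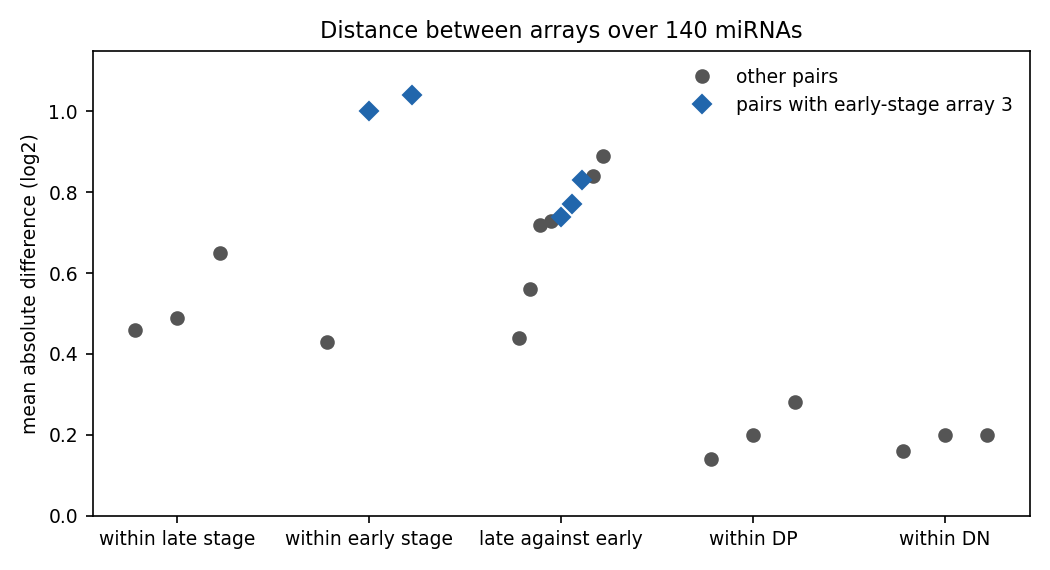
Mean absolute difference in log2 scaled signal between pairs of arrays over the 140 miRNAs detected on all 6 leukaemia arrays (y axis), by kind of pair (x axis); each point is a pair, and diamonds are pairs with early-stage array 3. Pairs across the stages span 0.44 to 0.89, overlapping the pairs within late stage (0.46 to 0.65), and early-stage array 3 lies 1.00 and 1.04 from the other 2 early-stage arrays.

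Against this spread, few miRNAs differed between the stages. In limma, with the 4 groups of primary arrays sharing the estimate of spread and p-values adjusted by Benjamini-Hochberg over 268 tested miRNAs, 6 members were higher and 1 was lower in LS at an adjusted p under 0.05. All 7 calls are members, and over all tested miRNAs they are 2.24% higher and 0.373% lower. An unadjusted p under 0.05 was reached by 39 miRNAs, 14.6% of those tested. The LS arrays lay wholly above the ES arrays for 22 miRNAs (8.21%) and wholly below for 7 (2.61%), and the 7 called miRNAs are among them. Since 3 arrays against 3 cannot go below 0.1 in an exact permutation test, stages that lie apart are not rare without any effect of stage. The median log2 fold change over the 268 was 0.26, with 182 above 0. Over the 140 members detected on all 6 arrays it was 0.14, with 90 above 0, 4 called higher and 1 lower. Over the 70 detected throughout in LS only it was 0.44, which the rule favours, since these passed it through LS.

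miR-3473b, the brightest of the higher miRNAs, had levels of 1.79, 1.45 and 1.41 in LS, against 0.13, -0.04 and 0.57 in ES. Every LS array exceeded every ES array, by more than the range within either stage, and the thymocytes were lower still, with means of -0.58 in DP and -0.49 in DN. It was 2.51-fold higher in LS (log2 change 1.33, SE 0.21, limma adjusted p = 0.0202). miR-3473, whose name differs only by its suffix, had levels of -1.75, -2.06 and -2.24 in LS and of -3.33, -3.42 and -2.77 in ES. Its stages did not overlap either, with ES 3 the nearest ES array, and it was 2.24-fold higher in LS (log2 change 1.16, SE 0.21, limma adjusted p = 0.0230). Probes for names this alike may bind each other's targets, so the 2 values may not be independent.

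miR-690 had levels of -1.0, -1.41 and -0.85 in LS and of -1.75, -1.99 and -2.40 in ES. The stages did not overlap, and the thymocyte groups bracketed them, with DP at -0.73, above the LS mean of -1.09, and DN at -2.11, close to the ES mean of -2.05. It was 1.95-fold higher in LS (log2 change 0.96, SE 0.21, limma adjusted p = 0.0368).

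miR-712-5p, reported in mouse to arise from the spacer of the ribosomal RNA precursor rather than from a miRNA gene of its own, had levels of -3.78, -3.23 and -4.74 in LS and of -5.63, -5.21 and -5.27 in ES. The stages did not overlap, with LS 3 close above the ES arrays and LS 2 well clear of them. It was 2.73-fold higher in LS (log2 change 1.45, SE 0.32, limma adjusted p = 0.0376).

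The remaining pair of higher miRNAs was faint, and both were members only because all 3 LS arrays, the higher group, detected them, which favours a difference. miR-344i had levels of -5.37, -4.87 and -4.97 in LS, where all 3 arrays were well above background, and of -6.32, -6.25 and -6.61 in ES, where 1 array was. The stages were separate and tight, and it was 2.50-fold higher in LS (log2 change 1.32, SE 0.23, limma adjusted p = 0.0202). miR-341-3p, from the imprinted Dlk1-Dio3 region, had levels of -4.79, -5.83 and -6.46 in LS, with 2 arrays well above background. In ES it stood at -7.59, -7.25 and -7.39, not detected on any array, and it was at the floor in every thymocyte group mean. Its fold is therefore a bound, at least 2.37-fold higher in LS (limma adjusted p = 0.0286), with the ES arrays set no lower than the faintest signal above background on each.

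miR-3968 was the only miRNA called lower. Its levels were 0.79, 0.79 and 0.97 in LS and 2.01, 1.42 and 1.70 in ES, with means of 1.46 in DP and 2.13 in DN. The LS arrays were close together and below all ES arrays and both thymocyte means. LS was 1.82-fold below ES (log2 change -0.86, SE 0.18, limma adjusted p = 0.0319).

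**Figure D2:**
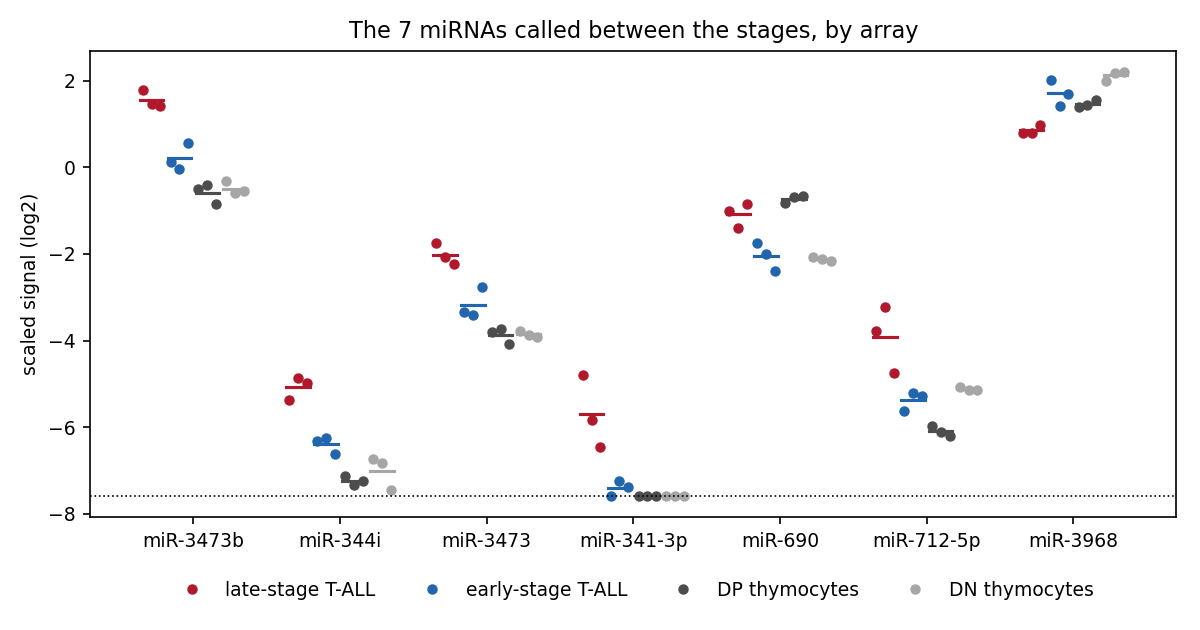
Log2 scaled signal (y axis) of the 7 called miRNAs (x axis) on every primary array; points are arrays, short lines are group means of 3 arrays, and the dotted line is the floor of -7.59. For 6 miRNAs all late-stage points lie above all early-stage points, and for miR-3968 they lie below.

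These calls lean on the estimate of spread and on the scaling. With the 6 leukaemia arrays fitted alone, 0 miRNAs were called by limma (16 at an unadjusted p under 0.05), with adjusted p of 0.228 to 0.673 for the 7. Leaving out any 1 of the 12 primary arrays kept miR-3473b and miR-344i called (adjusted p at most 0.0476), while miR-3473 lost its call without 6 of the 12, miR-341-3p, miR-3968 and miR-690 without 9 each, and miR-712-5p without 10, with log2 fold changes that kept their sign. Without ES 3 the count was 57 of the 268 tested, 52 higher and 5 lower, and it included all 7. It was 2 without DN 1, DN 2 or DN 3, and 3 without DP 1, DP 2, DP 3, ES 1, ES 2 or LS 1. With slide as a block 6 were called and miR-690 was at an adjusted p of 0.0572. Within slide 1 (LS 1 and LS 2 against ES 1 and ES 2) 0 were called, at adjusted p of 0.131 to 0.239 for the 7, and 64 miRNAs had an unadjusted p under 0.05.

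Within each slide the direction of all 7 was as in the whole set. Since their stages did not overlap, any subset of the arrays must give that direction, so it is no separate check. The same holds for the signs kept when 1 array was left out. On slide 1, miR-3473b was 1.57 higher in LS on the log2 scale and miR-3968 was at -0.92. On slide 2, where LS 3 stands alone against ES 3, miR-3473b was 0.84 higher, miR-690 1.55 higher, miR-712-5p 0.53 higher, and miR-3968 was at -0.73.

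When the arrays were scaled on the 75th percentile over all 1122 names, of which 148 to 281 were detected on a leukaemia array, the median of the tested miRNAs moved to -0.34 and the calls became 0 higher and 12 lower, with only miR-3968 in common. The 7 miRNAs kept their direction under this scaling, but only 1 of them still had its stages apart. This scaling shifts most miRNAs of an array alike, so positions relative to the median of all tested miRNAs were nearly kept: miR-3473b stood 1.07 above it as scaled here and 0.92 above it under the other scaling, miR-712-5p 1.19 and 1.05, miR-690 0.70 and 0.56, and miR-3968 stood at -1.12 and -1.26. Quantile normalization called 3 miRNAs, 2 higher and 1 lower, and the values in the authors' deposited table gave 3 higher and 1 lower. Relative to their own medians, those table values put miR-3473b at 1.29 and miR-3968 at -1.01, but miR-344i at 0.42, miR-341-3p at 0.64 and miR-712-5p at 0.76. miR-344i had log2 fold changes of 0.79 with quantile normalization (limma adjusted p = 0.250), 0.24 with normexp (adjusted p = 0.760) and 0.48 in the authors' values (adjusted p = 0.272). miR-3473b had 1.40, 1.30 and 1.35 under the same 3 settings and passed the test in each (adjusted p = 0.0124, 0.00518 and 0.00572).

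**Figure D3:**
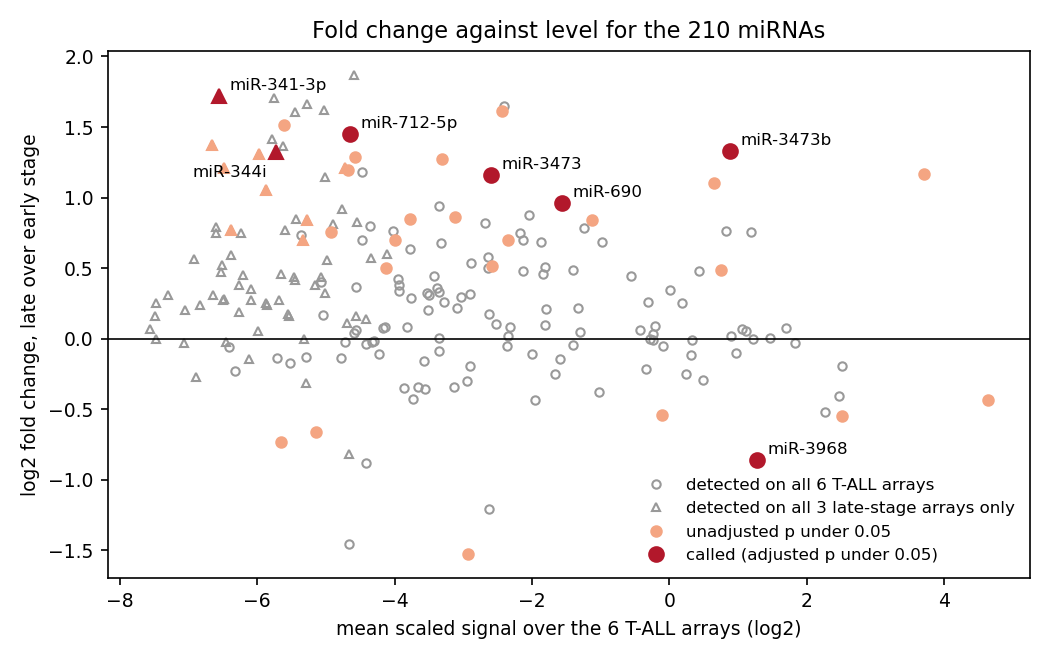
Log2 fold change of late over early stage (y axis) against the mean log2 scaled signal over the 6 leukaemia arrays (x axis) for the 210 members; circles were detected on all 6 arrays, triangles on all 3 late-stage arrays only, filled pale symbols have an unadjusted p under 0.05 and large dark symbols are called. Of the 7 called miRNAs, 6 lie above 0, and the triangles sit at the faint end.

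Members that did not pass the test are given as values. Among those with an unadjusted p under 0.05 and a positive log2 fold change, the brightest was miR-5109, with levels of 4.94, 4.25 and 3.68 in LS and of 3.43, 2.79 and 3.15 in ES. The stages were apart, and its log2 fold change was 1.17 (SE 0.30, limma adjusted p = 0.106). miR-494-3p, like miR-341-3p from the imprinted Dlk1-Dio3 region, had levels of 0.76, 1.06 and 1.78 in LS and of -0.15, 0.20 and 0.23 in ES (log2 change 1.11, SE 0.40, adjusted p = 0.249). miR-714 had levels of -0.90, -1.27 and -2.70 in LS and of -3.23, -2.91 and -3.58 in ES (log2 change 1.61, SE 0.48, adjusted p = 0.163). For each of these the lowest LS array was above the highest ES array. The other members with positive log2 fold changes that the naming rule takes were fainter. They include miR-139-3p, hosted by Pde2a and known as suppressive in several cancers (1.52), and miR-211-5p, hosted by the melanocyte gene Trpm1 (1.37, at least 1.90-fold). The rest were miR-135a-1-3p (1.31), miR-3472 (1.29), miR-5119 (1.28), miR-468-3p (1.21), miR-669n (1.21), miR-5112 (1.20) and miR-3068-3p (1.05). Of these fainter members, miR-211-5p, miR-3472 and miR-5119 also had their stages apart (limma adjusted p = 0.130, 0.163 and 0.145). miR-669n bears a name of the miR-669 group, but RefSeq places it on chromosome 3, away from Sfmbt2.

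On the negative side miR-27a-3p, of the miR-23a27a24-2 cluster, had the largest difference among members short of a call. It had levels of -5.13, -3.20 and -2.76 in LS and of -2.82, -2.38 and -1.31 in ES (log2 change -1.53, SE 0.56, limma adjusted p = 0.249). LS 1 was the low extreme and LS 3 overlapped ES 1. Its cluster partner miR-23a-3p ran alike, with -4.63, -2.64 and -2.42 in LS and -2.66, -2.47 and -0.94 in ES (log2 change -1.21, SE 0.57, adjusted p = 0.344), whereas miR-27b-3p and miR-23b-3p of the sister cluster stood at 0.70 and 0.69. miR-532-5p and miR-362-3p, neighbours in an intron of the X-linked gene Clcn5, stood at -0.73 and -0.66. miR-720, a name since traced to a transfer RNA fragment, was almost constant in LS at 2.23, 2.24 and 2.24, against 3.16, 2.60 and 2.61 in ES (log2 change -0.55, SE 0.18, adjusted p = 0.205). miR-5097 (-0.54) and miR-3963 (-0.43) also had all LS arrays below all ES arrays.

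Large differences set ES 3 apart from the other leukaemia arrays of both stages. They are given as a description, since these miRNAs were picked because ES 3 lay outside the range of the other 5 leukaemia arrays. miR-22-3p had levels of -4.15, -4.31 and -6.13 in LS and of -5.22, -5.65 and -1.07 in ES. ES 3 was 20.5-fold above the mean of ES 1 and ES 2, and DP thymocytes, at a mean of -2.99, lay between it and the other leukaemias. miR-3474 was at -2.67 on ES 3, at least 14.7-fold above that mean, since neither ES 1 nor ES 2 was well above background. miR-150-5p, which marks maturing lymphocytes and represses Myb, was at -1.85 on ES 3 and 12.1-fold above that mean, although ES 1 (-3.47) and LS 1 (-3.60) also carried it while ES 2 stood at -7.43. On the other leukaemia arrays these 3 varied over a wide range of low levels. miR-29c-3p, with -5.70, -5.24 and -5.21 in LS and -4.23, -5.60 and -1.96 in ES, stood at 7.75-fold on ES 3. The rest were miR-1896 at no less than 6.60-fold, with the same limit, miR-5121 at 7.45-fold, miR-5128 at 6.88-fold and miR-680 at 6.84-fold.

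On the low side of ES 3 stood the clusters whose sequences are printed above. miR-17-5p had levels of -3.38, -3.14 and -2.95 in LS and of -2.50, -2.89 and -4.85 in ES, which puts ES 3 4.47-fold below the mean of ES 1 and ES 2. miR-20b-5p was at 0.89, 0.95 and 0.91 in LS and at 1.98, 1.32 and -0.25 in ES, so that ES held both the highest and the lowest levels. miR-19b-3p, the member of miR-17~92 tied to T-ALL in mice, was at 1.47, 1.68 and 2.06 in LS and at 2.09, 2.27 and 0.62 in ES. All 6 members of miR-17~92 had their lowest leukaemia level on ES 3, and so had the 3 measured members of the miR-106a cluster and the 3 of miR-106b~25, as they did under scaling over all names, under quantile normalization, under normexp background correction and in the authors' value table. miR-18b-5p was at the floor there, miR-363-3p was 3.71-fold, miR-18a-5p 3.62-fold and miR-20a-5p 3.21-fold below the mean of ES 1 and ES 2. miR-130b-5p, outside these clusters, was also at the floor on ES 3. Among ES arrays ES 3 was the only one on the second slide. LS 3, on that slide too, had a median of 0.63 over the 6 members of miR-17~92, and ES 3 had -0.58. The part of the slide in these values was not tested.

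**Figure D4:**
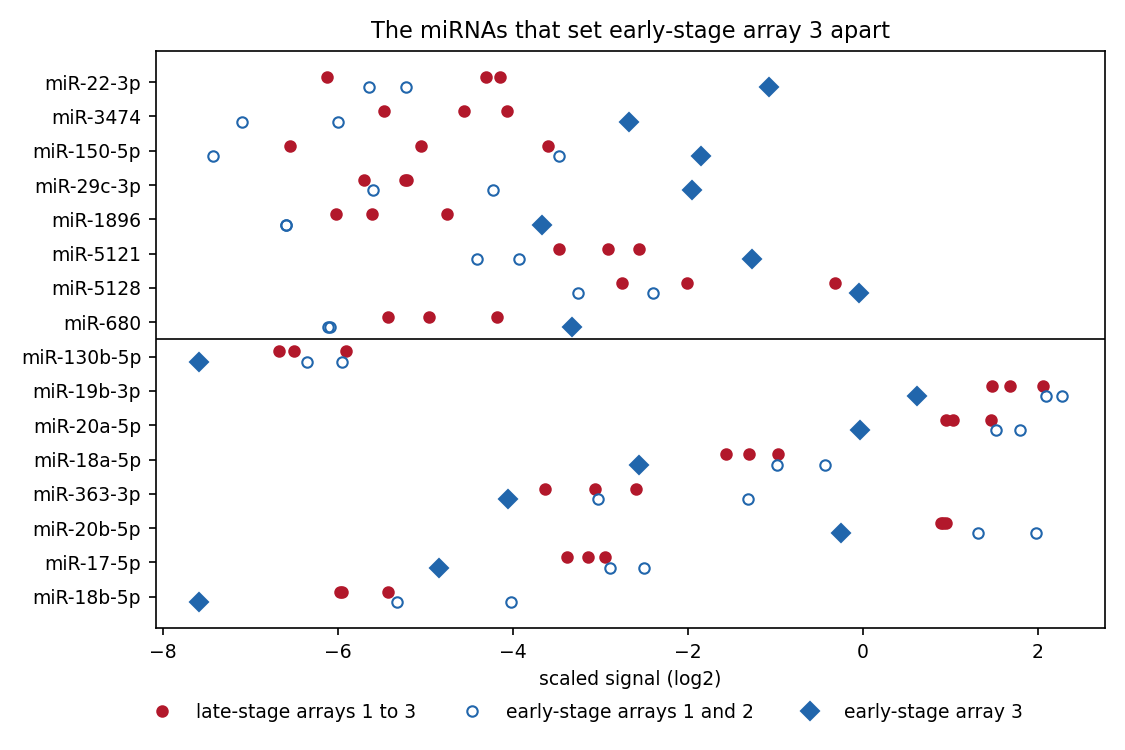
Log2 scaled signal (x axis) of the 8 members highest and the 8 lowest on early-stage array 3 relative to the mean of early-stage arrays 1 and 2 (y axis, ordered by that difference), on each of the 6 leukaemia arrays. The diamond of early-stage array 3 lies right of all other points in the upper 8 and left of them in the lower 8, which is how they were chosen.

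Some markers of other cells were high on ES 3 as well. miR-223-3p, the defining miRNA of granulocytes and monocytes and not a member, was at -6.64, -6.69 and -6.54 in LS and at -5.93, -7.08 and 2.85 in ES. ES 3 thus carried it at the level of the most abundant miRNAs, while the other 5 arrays were near the floor. miR-223-5p, also on the myeloid list, was at the floor on ES 3 and on all other arrays. The summed level of the 3 myeloid markers on the array was 2.20 to 2.55 in LS and 2.17 to 4.03 in ES, and miR-142-3p, common to all blood cells, makes up nearly all of it elsewhere. miR-146a-5p and miR-155-5p, both induced in activated immune cells, were at -2.20 and -2.35 on ES 3 and at -4.77 or lower on the other 5. For miR-155-5p the thymocyte means, -3.32 in DP and -2.92 in DN, were nearer to ES 3. For miR-146a-5p they were low, at -7.59 and -6.77. The part of other cells in the values of ES 3 was not tested, and in bulk RNA fewer cells of a type and less RNA per cell cannot be told apart.

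Of the other marker lists, the 3 erythroid markers summed to -3.39 to 0.69 in LS and -5.25 to -1.35 in ES, overlapping. miR-451, the red-cell miRNA and a member, had levels of -1.76, 0.58 and -3.56 in LS and of -2.17, -5.98 and -1.53 in ES (log2 change 1.65, 95% interval -0.97 to 4.26). Its spread within each stage exceeds the difference between them. The 3 mature lymphocyte markers summed to -2.64 to -1.29 in LS and -2.67 to -0.29 in ES. Of the 9 stromal markers 8 were above background on no leukaemia array, the exception being miR-22-3p, and the sums were -4.17 to -3.35 in LS and -4.03 to -0.95 in ES. The 2 megakaryocyte and endothelial markers, the liver marker and the 3 muscle markers were above background on none. The 7 epithelial markers summed to -4.37 to -3.93 in LS and -4.70 to -4.17 in ES. miR-9-5p, of the brain list, was at -2.69 on LS 1, -3.76 on ES 1 and -5.18 on ES 3 and at the floor on the other 3 leukaemia arrays and in all thymocytes, and miR-9-3p had the same pattern, in both stages. The labelled cell type was checked against miR-181a-5p, miR-181b-5p, miR-128-3p and miR-142-3p, all known in DP thymocytes or blood cells. All 4 were above background in both stages, with sums of 2.71 to 3.13 in LS and 2.65 to 3.46 in ES, mostly miR-142-3p. The mean levels of miR-181a-5p, miR-181b-5p and miR-128-3p were below those of DP thymocytes. miR-181a-5p averaged -0.64 in LS and -1.32 in ES, against 1.88 in DP and -0.83 in DN. miR-181b-5p averaged -0.71 in LS and -1.55 in ES, against 0.36 in DP and -0.97 in DN. miR-128-3p averaged -0.18 in LS and -0.26 in ES, against 1.6 in DP and 1.22 in DN. miR-142-3p, at 2.41 in LS and 2.6 in ES, was near its means of 2.65 in DP and 2.28 in DN. These markers are present in DN thymocytes as well and do not tell the sorted type apart.

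Of the 10 most abundant members, miR-3968 was called lower, and miR-5109, miR-720, miR-3963 and miR-5100 had their stages apart without passing the test. The other abundant members overlapped between the stages. miR-142-3p stood at 2.48, 2.54 and 2.20 in LS and at 2.46, 2.17 and 3.18 in ES, and miR-21-5p, known as oncogenic, at 2.79, 1.39 and 1.82 in LS and at 2.11, 2.02 and 3.42 in ES. Both overlapped between stages, and ES 3 was the highest array for each. miR-15b-5p and miR-16-5p, which restrain the cell cycle and Bcl2, had log2 fold changes of -0.03 (95% interval -0.35 to 0.29) and 0.00 (-0.36 to 0.37). miR-3963, the brightest miRNA of all, stood at 4.39, 4.22 and 4.65 in LS and at 5.11, 4.69 and 4.75 in ES, and miR-5100 at 2.05, 2.33 and 2.43 in LS and at 3.00, 2.53 and 2.49 in ES. For the last 2 the LS arrays were all lower.

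In the families of T-cell biology 0 members were called, and their medians are set beside the 0.26 of all 268. The 4 members of the miR-181 family had a median log2 fold change of 0.56, all above 0 as scaled here, and the median was -0.18 when arrays were scaled over all names. miR-181a-5p had levels of -0.91, -0.01 and -0.99 in LS and of -2.52, -1.55 and 0.11 in ES, so that ES held both the lowest and the highest leukaemia. miR-181b-5p, at -0.75, -0.46 and -0.91 in LS and -2.24, -1.09 and -1.32 in ES, had its stages apart (log2 change 0.84, SE 0.27, limma adjusted p = 0.205). Both were among the 52 of all 268 tested miRNAs that were called higher without ES 3 (log2 changes 1.40 and 0.96, limma adjusted p = 0.0230 and 0.0471). For miR-181a-5p ES 3 was the highest leukaemia array, so leaving it out favours that call, which is no separate evidence. For miR-181b-5p ES 3 lay between ES 1 and ES 2.

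The 12 measured members of miR-17~92 and its paralog clusters had a median of 0.04, between -0.30 and 0.26, and the median was -0.46 without ES 3. Without ES 3, miR-18b-5p (-1.11, limma adjusted p = 0.0477) and miR-20b-5p (-0.74, adjusted p = 0.0264) of the miR-106a cluster were called lower in LS. Both were picked above because ES 3 was low, so leaving that array out favours these calls, which are no separate evidence. The 3 members of the miR-29 family, known to target DNA methyltransferases, had a median of -0.43 and were all below 0, but the median was 0.11 without ES 3. miR-29a-3p was at -1.39, -1.10 and -1.15 in LS and at -1.66, -1.23 and 0.39 in ES, so that ES 3 was the high array here as well. The 8 let-7 members had a median of -0.03, with let-7a-5p at 0.79, 0.83 and 1.12 in LS and 0.82, 1.11 and 0.75 in ES. The medians were -0.01 for 4 members of miR-15/16, 0.09 for 5 of miR-30, -0.15 for 5 of the miR-232724 clusters and -0.04 for 4 of miR-26, miR-101 and miR-148, and without ES 3 they were 0.06, 0.28, 0.12 and 0.04. Those of let-7, miR-17~92, miR-30 and miR-15/16 were -0.77, -0.70, -0.65 and -0.76 when arrays were scaled over all names, and under quantile normalization those of miR-30 and miR-15/16 were -0.19 and 0.13.

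Of the 9 lymphocyte activation and maturation miRNAs listed 5 were members, and 4 of these were below 0 (median -0.43, and 0.07 without ES 3), and the 3 members among the 8 listed T-ALL suppressors all were (median -0.43, and 0.24 without ES 3), with miR-150-5p at -3.60, -5.05 and -6.55 in LS and -3.47, -7.43 and -1.85 in ES. The 4 members of the list tied to T-ALL promotion in mice had a median of 0.07, of -0.67 when scaled over all names and of -0.41 without ES 3. The single member of the proliferation, p53 and hypoxia list, miR-449a-5p, had levels of -1.16, -2.53 and -3.33 in LS and -0.83, -3.12 and -3.12 in ES, high on 1 array of each stage. Of 15 members with names of the miR-297, miR-466, miR-467 and miR-669 groups, many of which lie in an intron of Sfmbt2, 13 were above 0 (median 0.44, and -0.08 when scaled over all names). As 12 of the 15 were members through LS alone, the rule favours that count, and the 3 detected on all 6 arrays had a median of 0.04. miR-669f-3p had the largest log2 fold change of all members, 1.87 (SE 0.89, limma adjusted p = 0.344), from levels of -4.84, -3.76 and -2.36 in LS and -7.59, -3.45 and -5.53 in ES. ES 1 was at the floor and ES 2 inside the LS range.

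The members differed by base composition. Among the 153 members with a RefSeq sequence, the log2 fold change of LS over ES ran with the share of G and C in the mature miRNA (Pearson r 0.37, Spearman rho 0.41 across miRNAs, which share arrays and are not independent replicates). It stood at 0.33 and 0.37 over the 104 of them that were detected on all 6 arrays. The median log2 fold change was 0.01 over 20 miRNAs with at most 40% G and C, 0.18 over 63 with 40 to 50%, 0.20 over 29 with 50 to 60%, 0.40 over 28 with 60 to 70% and 0.76 over 13 with more than 70%. All 13 of the last were above 0, but 7 of them were members through LS alone, which favours that count. The 6 detected on all 6 arrays had a median of 0.56. Under scaling over all names these 13 had a median of 0.07 and 9 were above 0.

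The arrays did not line up by stage in this. The median level of the 13 was -3.68, -4.45 and -4.78 on LS 1, LS 2 and LS 3 and -5.93, -5.83 and -3.82 on ES 1, ES 2 and ES 3. ES 3 was thus as high as LS 1, and thymocytes lay between -6.51 and -6.00. The total signal of the arrays ran as 222422, 194528 and 115941 in LS and 113169, 115008 and 244993 in ES, highest on LS 1 and ES 3. The array DP 2, with a total signal of 211353, had a median of -6.22 for the same 13, among the other thymocytes. Whether RNA amount, RNA quality or labelling has a part in the pattern was not tested. Without ES 3, the GC-rich names miR-762, miR-705, miR-149-3p and miR-3102-5p were among the 52 of all 268 tested miRNAs that were called higher. ES 3 was the highest ES array for each of them, so leaving it out favours these calls, which are no separate evidence.

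**Figure D5:**
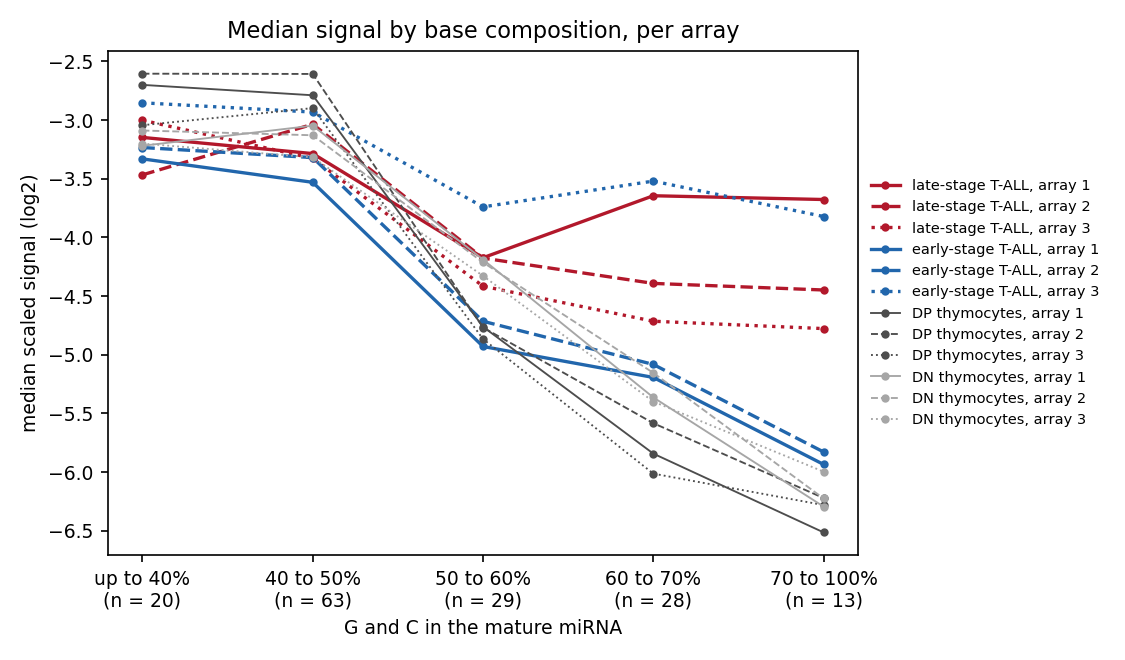
Median log2 scaled signal (y axis) of 153 members in 5 classes of G and C content of the mature miRNA (x axis, with the number of miRNAs) on each of the 12 primary arrays; colours are groups and line styles are replicates. In the class above 70% the late-stage arrays lie at -3.68 to -4.78, early-stage arrays 1 and 2 near the thymocytes, and early-stage array 3 at -3.82.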

How the data were processed

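Total RNA of sorted cells (miRNeasy kit, per the labels' protocols) was hybridised to Agilent miRNA arrays with 1 colour. Per the file headers, images were read with Feature Extraction 10.7.3.1, and the deposited files hold spot intensity, not scaled between arrays. The authors' deposited value table holds log2 values with 1 median, 3.29, for every column, as quantile normalization gives. RMA, affy, MAS5 and GCOS appear in the submitters' processing notes, with no version and no role.

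Control and outlier spots were dropped (4.03 to 8.60% per array), no spot was saturated, and the rest were averaged to probes and then to miRNAs. Signals were scaled to the 75th percentile of 108 mouse miRNAs that all 12 primary arrays showed well above background, floored at -7.59 and put on the log2 scale. limma 3.58.1 (R 4.3.3, data.table version 1.17.8) fitted 4 group means to the 12 arrays, with eBayes and Benjamini-Hochberg adjustment over the 268 mouse miRNAs detected on all 3 arrays of a group. Errors of log2 fold changes are standard errors. A bound (at least N-fold) sets arrays without signal to the faintest value above background. The number of arrays limits the precision. The fit was run on simulated data with the same spread in every group. In these data the median SD was 0.59 in ES and 0.30 in LS, against 0.13 in DP and 0.11 in DN. The simulation therefore does not cover this unequal spread. Normexp used the median spot signal, because the files hold no mean signal.

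The text names every called miRNA, up to 12 uncalled members each way with an unadjusted p under 0.05, the 8 highest and 8 lowest on ES 3, the 10 most abundant, and up to 4 per list. Members outside these, and non-members among the markers, were named after their values were seen. The members and lists were chosen with earlier results of these data known. The M295 line (1 array) was not analysed here. Same-numbered LS and ES arrays did not deviate together (correlations 0.06, -0.23 and -0.40), so replicate numbers were not used to pair them in the main fit. So few arrays cannot exclude a pairing.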

Additional observations from a re-analysis of the deposited data

How the results depend on the processing

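The count of 7 called miRNAs (6 higher and 1 lower in LS) stayed within 1.5 times with total gene signal (7), a filter on the well-above-background mark (6), only members tested (7), slide as a block (6), an intensity trend (6) and a higher floor (5). It was 12 with scaling over all names (0 higher and 12 lower), 3 with quantile normalization, 4 with normexp, 4 in the authors' value table and 3 with the median over spots. It was 0 with no filter (42 at an unadjusted p under 0.05), 0 with the 6 leukaemia arrays only, 0 within slide 1, and 120 within slide 2, where 1 array stands against 1 and the spread comes from the thymocytes. limma array weights, which gave ES 3 a weight of 0.06, called 34. The replicate number as a block for LS and ES called 0 by limma (17 at an unadjusted p under 0.05). Whether the numbers pair these samples is not known. Leaving out 1 array gave 2 to 57 calls. Added after seeing the data, ES 2 as the only ES array gave 10, of which 2 were among the 7, and only miRNAs detected on all 6 leukaemia arrays gave 5.

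Of the 25 miRNAs called or close to it, 20 kept their direction under every setting run. Within slide 2, miR-139-3p (-0.022), miR-135a-1-3p (-0.27), miR-5112 (-0.21) and miR-3068-3p (-0.17) reversed, and miR-3968 stood at 0.011 with the median over spots. The cause was not tested. The difference in detected miRNAs was 32 by the stricter mark and ran between -1.83 and 64.7 without 1 array each. Faint signal limits miR-341-3p, miR-344i and miR-211-5p, which few ES arrays showed above background.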

Other observations

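The array also carried 57 names of miRNAs that are not from mouse. The scanner software marked 4, 6 and 5 of them as detected on LS 1, LS 2 and LS 3 and 2, 4 and 5 on ES 1, ES 2 and ES 3, against 3 on each DN array and 8 on each DP array. Neither stage exceeded the DP thymocytes in this count.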
